A study of Mus musculus with 12 samples.

Results

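The genes described here are those of the deposited mouse hippocampus RNA tables whose every transcript is a noncoding RefSeq record. Their longest transcript spans at least 1000 nt, the mean of their stress and control levels is at least 2 FPKM (fragments per kilobase, a level corrected for transcript length and depth), and symbols of microRNA and small nucleolar RNA genes were left out, as were Meg3, Rian, Mirg and Kcnq1ot1. Of 23953 genes in the tables, 1421 met the rule on records, length and symbol, and 126 of these reached 2 FPKM. Members were thus selected on their RNA level in both tables, so that level is given as a description. Just inside the limit lay the pseudogene Gm10409 at 1.88 FPKM in the stress and 2.16 FPKM in the control table and 8430429K09Rik at 2.37 and 1.74 FPKM, and just outside it lay Dlx6os1 at 1.81 and 2.18 FPKM. Checked against the GRCm38.p6 RefSeq gene table, to which 124 members could be matched, 74 members are annotated as long noncoding RNA (lncRNA), 39 as pseudogenes and 11 as protein-coding genes. The set is therefore called the noncoding-record genes, and the name lncRNA is kept for the 74. 

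The tissue was whole hippocampus taken by micropunch from male C57BL/6 mice. The stress group (6 mice) was restrained for 30 min in a conical tube and housed singly for 1 h, and the control group (5 mice) was naive and taken from the cage directly. No allele or drug other than the brief isoflurane that both groups received is named. Tags state postnatal day 28, while the protocol states an age of 7 weeks. Restraint began 2 h after lights-on and no time is given for control mice, so time of day and stress cannot be told apart. DNA was pooled from at most 2 mice, with 1 pool made from 1 mouse, and gave 3 stress and 3 control libraries of 5-hydroxymethylcytosine (5hmC), each with a separate peak list. RNA levels come as 1 table per group, so RNA differences have no replicate check and carry no test. Markers of hippocampal neurons were present in both tables: those of dentate granule cells summed to 80.3 FPKM under stress and 69.4 FPKM in control, and those of CA1 to 41.9 and 43.7 FPKM.

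Long noncoding RNAs are transcribed and processed much like messenger RNAs but have no evident long reading frame. Some build or mark compartments of the nucleus, some are spliced mainly to release small nucleolar RNAs or microRNAs from their introns, and some act through the chromatin or the gene beside them. 5hmC, the oxidised form of methylcytosine made by TET enzymes, is abundant in neurons, where it lies mostly in the bodies of active genes and is low at CpG-rich start sites.

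Promoters of 3 genes are shown because they stand for the range of the lncRNAs in CpG content and 5hmC near the outermost annotated start. They come from RefSeq (GRCm38.p6, 250 bases before to 50 after the start, gene strand), and capitals mark CpG dinucleotides, where nearly all mammalian 5hmC lies. The promoter of Malat1 lies at chr19:5802623-5802922 on the minus strand and holds 10 CpGs, that of Tug1 at chr11:3648765-3649064 on the minus strand holds 37, and that of 4833422C13Rik at chr13:91741823-91742122 on the minus strand holds 5.
Malat1: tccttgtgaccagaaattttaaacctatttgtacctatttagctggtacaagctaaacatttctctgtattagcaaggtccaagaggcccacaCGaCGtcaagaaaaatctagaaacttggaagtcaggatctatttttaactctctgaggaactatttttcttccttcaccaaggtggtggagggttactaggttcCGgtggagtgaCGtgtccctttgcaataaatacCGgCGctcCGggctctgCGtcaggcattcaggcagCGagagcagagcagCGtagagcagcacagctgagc
Tug1: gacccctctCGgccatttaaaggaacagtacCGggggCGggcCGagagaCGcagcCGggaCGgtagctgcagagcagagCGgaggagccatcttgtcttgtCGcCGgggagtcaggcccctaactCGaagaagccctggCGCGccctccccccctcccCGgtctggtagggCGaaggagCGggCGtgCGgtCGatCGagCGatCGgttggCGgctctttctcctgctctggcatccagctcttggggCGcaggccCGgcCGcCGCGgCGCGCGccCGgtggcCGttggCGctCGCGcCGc
4833422C13Rik: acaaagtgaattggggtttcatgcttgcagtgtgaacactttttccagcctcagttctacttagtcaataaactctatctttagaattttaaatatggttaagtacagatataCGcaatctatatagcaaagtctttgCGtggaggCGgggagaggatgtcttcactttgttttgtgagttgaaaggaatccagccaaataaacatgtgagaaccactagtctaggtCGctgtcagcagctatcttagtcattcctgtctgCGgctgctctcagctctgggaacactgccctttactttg

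Promoters were given for 55 of the 74 lncRNAs (68 promoters), and 64.7% of them held at least 10 CpGs. The share was 43.5% over all 32851 promoters of the table, 19.1% over its lncRNA genes and 56.8% over its protein-coding genes (no test). The share over promoters of the expressed lncRNAs was thus nearer to that of coding genes than to that of all lncRNA genes. The comparison sets were not filtered on RNA level, so expressed genes are set beside unfiltered ones. The motif TGACG, the half-site bound by CREB, was found on either strand in 32.4% of the lncRNA promoters and in 20.8% of all promoters. It stood in 23.6% of the promoters of protein-coding genes and in 15.7% of those of all lncRNA genes. The motif holds a CpG, and the sets differ in CpG content. The median was 15 CpGs in the expressed lncRNAs, 7 over all promoters and 13 in protein-coding genes. The full site TGACGTCA, which contains TGACG, was found in 2.94% of the lncRNA promoters and 1.79% of all promoters. AGAACA, the half-site of the glucocorticoid receptor, stood in 17.6% of lncRNA promoters and 19.0% of all promoters, and TGANTCA, the AP-1 motif, in 4.41% and 7.81%. These are counts of letters in the window, not of binding.

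Mature microRNAs are shown for the lncRNAs that host them, since the host transcript is what the tables measured. The seed, bases 2 to 8, is in capitals. miR-29b-3p and miR-29c-3p, encoded within A330023F24Rik, share their seed, and miR-125b-5p lies within 2610203C20Rik, now named Mir100hg.
miR-29b-3p: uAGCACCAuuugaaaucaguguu
miR-29c-3p: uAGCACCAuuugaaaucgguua
miR-125b-5p: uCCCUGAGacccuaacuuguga
The host A330023F24Rik was at 5.10 FPKM in the stress table and 4.45 FPKM in the control table, a log2 difference of 0.16. The host Mir100hg was at 2.78 and 2.79 FPKM in the stress and control tables.

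The expressed lncRNAs were low, short and little spliced beside expressed protein-coding genes. Their median level over both tables was 3.61 FPKM, against 6.82 FPKM for 8042 coding genes of at least 2 FPKM, and 14.9% of them reached 10 FPKM, against 35.0% of the coding genes. Their median gene body was 8.7 kb and their median number of exons was 3, against 28.6 kb and 10 for coding genes. Of the 74, 15 had a single exon, 41 overlapped no other gene, and 25 shared exonic bases with another gene, in 21 cases on the opposite strand. The tables do not state whether strand was used in counting, so the levels of these 25 and of their partners cannot be fully told apart.

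Malat1, the nuclear speckle RNA, dominated the set. It was at 542 FPKM in the stress table and 536 FPKM in the control table, rank 9 of all genes by mean level, and made up 26.8% of the members' summed FPKM in the stress table and 27.0% in the control table. Norad (2900097C17Rik), which in human cells binds the Pumilio proteins, followed at 210 FPKM in the stress and 202 FPKM in the control table. Oip5os1 (1700020I14Rik), the conserved RNA also called Cyrano, was at 39.2 and 40.6 FPKM. Peg13, an imprinted RNA made from within the body of Trappc9, was at 29.1 FPKM under stress and 26.0 FPKM in control. All 4 differed between the tables by at most 0.16 on the log2(FPKM + 1) scale, the scale of every RNA difference given here, also those in parentheses, which understates changes of low genes.

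The next lncRNAs by level were likewise close between the tables. Chd3os, listed under the symbol Rnf227 in the GRCm38.p6 table, was at 28.2 FPKM in the stress and 25.0 FPKM in the control table, 1500009C09Rik at 25.4 and 24.7 FPKM, and 1500011B03Rik at 22.9 and 25.4 FPKM. Tug1, an RNA needed for male fertility in mice, was at 16.4 FPKM under stress and 14.7 FPKM in control (0.15). Miat, also called Gomafu, a nuclear RNA of neurons, was at 7.77 and 7.34 FPKM (0.07), and Mir124a-1hg (A930011O12Rik), a host of the neuronal miR-124, at 5.87 and 6.21 FPKM (-0.07). The 3 nuclear-architecture RNAs among the members, Malat1, Miat and Neat1, thus ranged from the most abundant member to one below 6 FPKM in both tables.

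**Figure D1:**
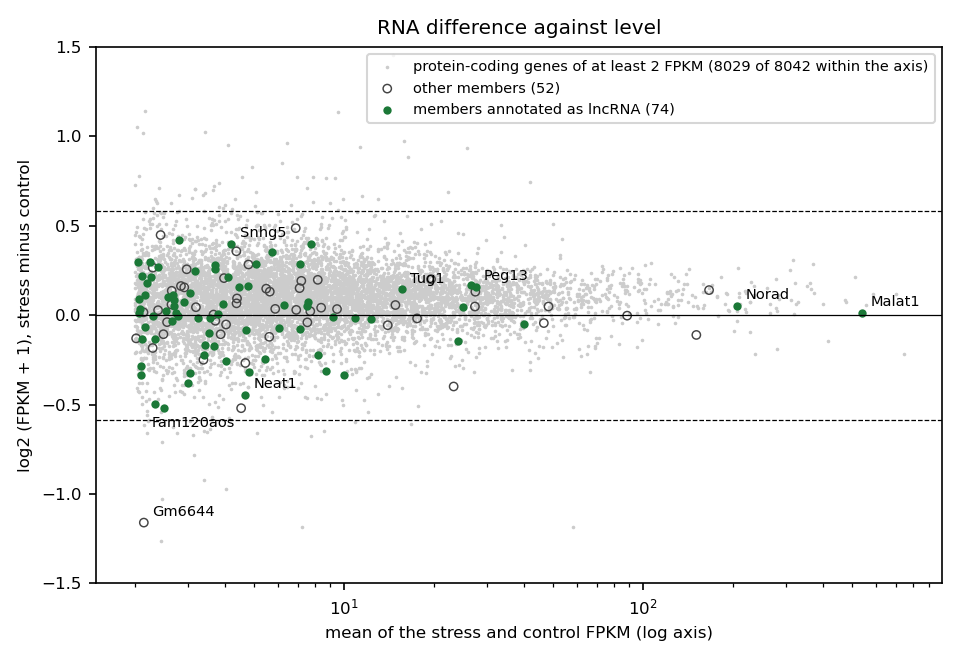
RNA difference of each gene, log2(FPKM + 1) of the stress table minus that of the control table, against its mean FPKM on a log axis; filled green points are the 74 members annotated as lncRNA, open points the other 52 members and grey points 8029 of the 8042 expressed protein-coding genes. The dashed lines mark 1.5-fold on this scale, which only the pseudogene Gm6644 passes among the members.

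RNA of the noncoding-record genes differed little between the stress and control tables. On the log2(FPKM + 1) scale, none of the 126 members was at least 1.5-fold higher under stress. Of all 9158 genes of at least 2 FPKM, 1.08% were. On that scale, 1 member was at least 1.5-fold lower, where 0.721% of all genes were. The counts depend on the pseudocount: with 0.1 in place of 1, 1 member was past 1.5-fold higher and 4 were past 1.5-fold lower. The share of all genes with a pseudocount of 0.1 was not computed. The median log2 difference was 0.02 over the 74 lncRNAs and 0.03 over all 126 members, against 0.09 over all genes and 0.10 over coding genes. Relative to that shift of all genes, 25 of the 74 lncRNAs lay above the median of all genes and 49 at or below it, and the members' median became -0.06 once centred on all genes. At a lower bound of 1.25-fold, chosen after the values were seen, 4 lncRNAs (5.41%) were higher, against 7.32% of all genes, and 7 (9.46%) were lower, against 2.71% of all genes.

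The 7 lncRNAs past 1.25-fold lower were Gm5089, Fam120aos, Neat1, 4930570G19Rik, D7Ertd715e, A230072C01Rik and 2210408F21Rik. Gm5089 was at 1.88 FPKM in the stress table and 3.13 FPKM in the control table (-0.52). Fam120aos, named for its place opposite Fam120a, was at 1.77 and 2.91 FPKM (-0.50). Neat1, on which nuclear paraspeckles are built, was at 3.82 FPKM under stress and 5.55 FPKM in control (-0.44), so its level under stress was the lowest of the 3 nuclear-architecture RNAs. D7Ertd715e, listed as an older symbol of Snhg14, the long transcript that runs from Snrpn through the Prader-Willi region toward Ube3a, was at 8.75 and 11.3 FPKM (-0.34). C230091D08Rik, a second member with that older symbol and named after its values were seen, was at 7.63 and 9.72 FPKM (-0.31). Sox2ot, in whose body Sox2 lies, was at 4.89 FPKM under stress and 5.97 FPKM in control (-0.24).

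The 4 lncRNAs past 1.25-fold higher were E030003E18Rik, Snhg5, 1700034P13Rik and 1500004A13Rik. E030003E18Rik was at 3.37 FPKM in the stress and 2.26 FPKM in the control table (0.42), and 1700034P13Rik at 8.96 and 6.55 FPKM (0.40), though 49.2% of the exonic bases of 1700034P13Rik lie opposite Vcpip1. Snhg5, which carries small nucleolar RNAs in its introns, was at 4.92 FPKM under stress and 3.49 FPKM in control (0.40). Of other hosts of small nucleolar RNAs, Gas5, whose human counterpart binds the glucocorticoid receptor, was at 4.47 and 3.72 FPKM (0.21), and Snhg4 was at 1.79 and 2.39 FPKM (-0.28). Snhg14 is also such a host, and the 2 members that carry its older symbol were lower under stress, as given above. The median over all genes was 0.09.

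**Figure D2:**
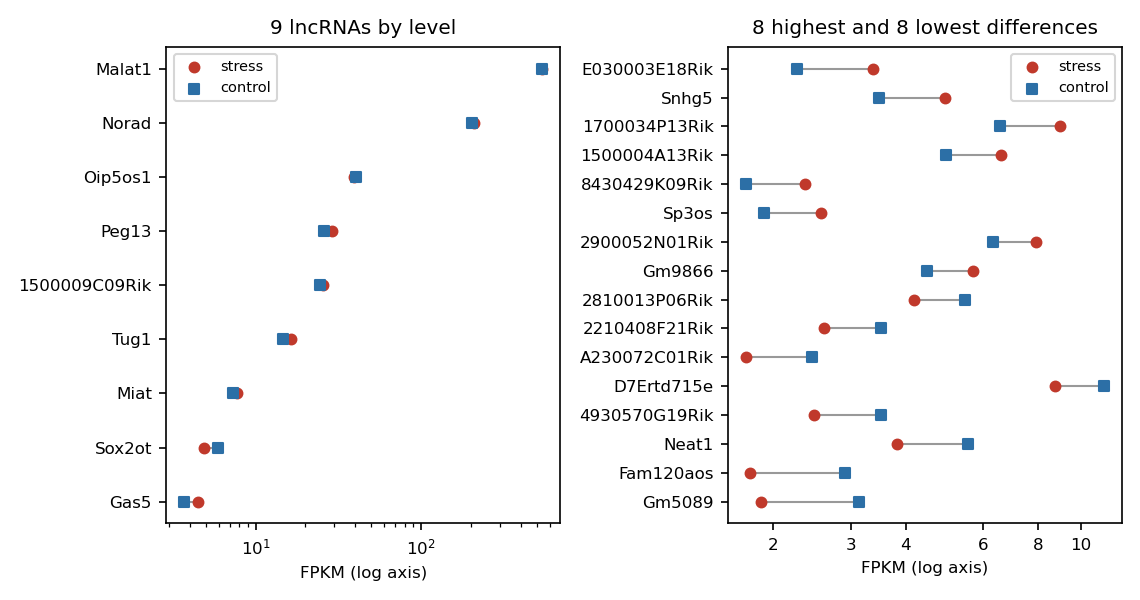
FPKM of single lncRNAs in the stress table (red circles) and the control table (blue squares), on log axes; the left panel holds 9 lncRNAs ordered by level and the right panel the 8 lncRNAs with the highest and the 8 with the lowest difference. In the left panel the marks of most genes nearly coincide, and in the right panel the lower lncRNAs include Gm5089, Fam120aos and Neat1 and the higher ones E030003E18Rik and Snhg5.

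No gene for the partner proteins of these RNAs was past 1.5-fold in either direction. For the 16 measured genes of paraspeckle proteins, the partners of Neat1, the median RNA difference was 0.01, and 2 (12.5%) were past 1.25-fold lower, against 2.71% of all genes; Sfpq was at 23.9 FPKM under stress and 21.6 FPKM in control, and Nono at 20.8 and 21.1 FPKM. The medians were 0.12 for 20 splicing factors of nuclear speckles, 0.10 for 14 factors of nonsense-mediated decay, which degrades many spliced host transcripts, 0.10 for 9 proteins of small nucleolar ribonucleoproteins and 0.11 for 9 proteins of the Polycomb complex PRC2. Of the genes for small nucleolar ribonucleoproteins, 3 (33.3%) were past 1.25-fold higher, against 7.32% of all genes; Nop10 was at 11.6 and 8.09 FPKM and Fbl at 4.69 and 3.48 FPKM in the stress and control tables.

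Markers of other cell types differed between the same tables. The 12 choroid plexus markers summed to 66.9 FPKM in the stress table and 239 FPKM in the control table, none of them was listed at 0, and all 3 that reached 2 FPKM were past 1.5-fold lower. The 12 oligodendrocyte markers summed to 1398 and 1598 FPKM, with a median difference of -0.26. Medians were 0.19 for astrocyte, 0.22 for microglia and 0.13 for neuron markers, against 0.09 over all genes. The microglia markers were split: of 9 measured, 4 (44.4%) were past 1.25-fold higher and 2 (22.2%) past 1.25-fold lower. The shares of all genes were 7.32% and 2.71%. Thalamus markers, from tissue beside the hippocampus, had a median of 0.32 over the 6 that reached 2 FPKM and summed to 39.5 and 31.3 FPKM, and all 8 ependyma markers were lower, with sums of 7.33 and 13.7 FPKM. In bulk tissue, fewer cells of a type and less RNA per cell cannot be told apart. The part of these marker differences in the lower values of Neat1, Sox2ot and the other lncRNAs named above was not tested.

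Several extreme values belonged to pseudogenes whose transcripts the tables place on their parent gene. Gm6644 was the 1 member past 1.5-fold on the log2(FPKM + 1) scale. It was at 0.943 FPKM in the stress table and 3.34 FPKM in the control table (-1.16). All its exonic bases lie in Akr1b3, an aldose reductase gene, which was at 2.43 FPKM under stress and close to 0 in control. The sum of Gm6644 and Akr1b3 was 3.37 FPKM under stress and 3.34 FPKM in control (0.01). Gm6793 and Hnrnpa3, which share exons in the same way, differed by 0.49 for Gm6793 alone and by 0.09 for their sum, and Atp6v0c-ps2 and Atp6v0c summed to 197.5 and 187.5 FPKM (0.07). For Gm13363 and Ptp4a1 the sum still differed, at 27.0 FPKM under stress and 32.3 FPKM in control (-0.25). The values of such members are uncertain, since reads from shared exonic bases can be assigned to either record. The cause of these differences was not tested.

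Isoforms of one gene differed in opposite directions in some lncRNAs whose total was close between the tables. The total of 1700003M07Rik was at 4.04 FPKM under stress and 3.83 FPKM in control, but its 4-exon isoform was at 2.91 and 1.19 FPKM and its 3-exon isoform at 1.12 and 2.64 FPKM. In Gt(ROSA)26Sor, the locus used for many mouse knock-ins, the total was 3.80 FPKM under stress and 3.79 FPKM in control, with 1 isoform at 2.22 and 1.11 FPKM and another at 1.58 and 2.46 FPKM. These 2 genes were named after their values were seen, and the split of reads between overlapping isoforms is an estimate without error here.

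5hmC peaks lay in the bodies of fewer lncRNAs than coding genes. At least 1 of the 6 libraries had a peak in 46 of the 126 members and in 34 of the 74 lncRNAs (45.9%), against 77.4% of expressed coding genes. The share was lower for lncRNAs of 20 to 100 kb too, at 60.0% against 87.2%, and reached 100.0% against 94.1% in bodies of at least 100 kb, of which only 6 were lncRNAs. Of these 6, 2900079G21Rik reaches that length only through isoforms listed at 0 FPKM in both tables. Peaks covered on average 1.89%, 1.99% and 3.51% of lncRNA bodies in stress libraries 1, 2 and 3, and 0.929%, 1.51% and 0.683% in control libraries 1, 2 and 3. The stress mean was 2.46% ± 0.908 and the control mean 1.04% ± 0.423 (SD, n = 3 each), and the groups did not overlap. In coding genes the means were 3.60% ± 1.27 in stress and 2.20% ± 0.862 in control libraries. The lncRNA mean was below the coding mean in 6 of 6 libraries.

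Leaving out Neat1 lowered the lncRNA mean in 5 of 6 libraries. Without Neat1, peaks covered 1.03%, 1.12% and 2.59% of lncRNA bodies in the stress libraries and 0.942%, 0.930% and 0.220% in the control libraries. The means were then 1.58% ± 0.877 in stress and 0.697% ± 0.413 in control, and the lowest stress library lay just above the highest control library. Summed over the genome, peaks spanned 16.6, 33.6 and 38.1 Mb in stress 1, 2 and 3 and 16.9, 30.1 and 16.7 Mb in control 1, 2 and 3, so the lists differ in length within both groups. Each mean was also divided by the mean over coding genes in the same library. For the lncRNAs this gave 0.865, 0.495 and 0.760 in stress and 0.541, 0.472 and 0.406 in control. Without Neat1 it gave 0.471, 0.279 and 0.562 in stress and 0.548, 0.291 and 0.131 in control. Over all 126 members it gave 0.730, 0.363 and 0.575 in stress and 0.431, 0.436 and 0.357 in control. In each of these sets the groups then overlapped. Noncoding-record genes under 2 FPKM, from which no gene was left out, averaged 2.19% ± 0.889 in stress and 1.40% ± 0.512 in control. They lay above the expressed lncRNAs without Neat1 in 6 of 6 libraries. With Neat1, the lncRNA mean was higher than theirs in stress 1 (1.89% against 1.19%) and stress 3 (3.51% against 2.88%). It was lower in the other libraries.

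**Figure D3:**
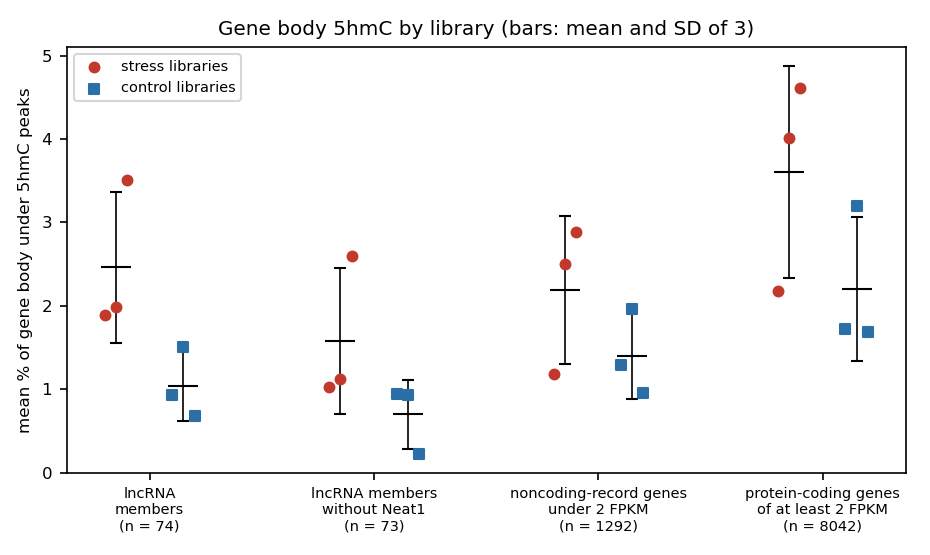
Mean percentage of the gene body under 5hmC peaks in each library (red circles, stress; blue squares, control), with the mean and SD of 3 libraries, for the lncRNA members with and without Neat1, noncoding-record genes under 2 FPKM and expressed protein-coding genes. Coding genes lie highest, at 3.60% in stress and 2.20% in control, and leaving out Neat1 lowers the lncRNA means to 1.58% and 0.697%.

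In 3 of 4 classes of body length, lncRNA means lay below coding means, and in the longest class they lay above. In bodies under 5 kb, the mean was 3.53% in stress and 1.50% in control for lncRNAs, against 8.02% and 3.99% for coding genes, and without Neat1 the lncRNA means there were 0.898% and 0.475%. In bodies of 5 to 20 kb the lncRNA means were 2.37% in stress and 0.646% in control, against 4.59% and 2.52% for coding genes. In bodies of 20 to 100 kb they were 0.777% and 0.682%, against 2.70% and 1.88% for coding genes. In bodies of at least 100 kb they were 2.63% in stress and 1.86% in control over 6 lncRNAs, against 2.11% and 1.59% for coding genes. Over 74 lncRNAs, Spearman's rho of mean coverage was 0.01 with mean FPKM and 0.38 with body length, values from the same 6 libraries that are given without a test. Of the 4 most abundant lncRNAs, Malat1, Norad and Peg13 were at 0% in all 6 libraries, and Oip5os1 had a peak in control 1 and none in the other libraries. A body without a listed peak may still hold 5hmC below the lowest deposited score of 50.

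Neat1 held the highest coverage of all members. Its annotated body, 3177 bp on the minus strand at chr19:5842302-5845478 (mm9), was covered to 64.5%, 65.3% and 70.4% in stress libraries 1, 2 and 3, and to 0%, 43.7% and 34.5% in control libraries 1, 2 and 3. Every stress library was above every control library, and the means were 66.7% ± 3.21 in stress and 26.1% ± 23.0 in control (SD, n = 3 each; exact two-sided permutation p = 0.1, the smallest possible, adjusted p = 1 over 12602 genes by Benjamini-Hochberg). The same single region, from 0.034 to 2.38 kb after the start, was found in all 3 stress libraries and in control 2 and 3. Its peaks ranked within the top 3.00%, 9.35% and 4.27% of their lists by the authors' score in stress, and within the top 15.3% and 63.2% in control 2 and 3. Divided by each library's mean over all genes with a peak, Neat1 coverage was 20.8, 10.7 and 9.95 in stress and 0, 9.79 and 15.9 in control, so the groups then overlapped.

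A further peak lay 12.7 to 16.4 kb after the start of Neat1 in stress 2 and 3 and in no control library, and a peak of control 1 lay 20.9 to 21.6 kb after the start. Both are beyond the annotated short transcript, and in mice a longer Neat1 transcript from the same start is known as background. The RNA table, which holds only the short record, thus gave a lower Neat1 level beside higher coverage of the same body in the stress group. Over the 46 members with a peak, Spearman's rho between the coverage difference and the RNA difference was -0.15, a description over genes of the same libraries.

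1500009C09Rik was the other member whose groups did not overlap. Peaks covered 13.8%, 23.7% and 20.0% of its body in stress libraries 1, 2 and 3, and 0%, 11.5% and 0% in control libraries 1, 2 and 3 (exact two-sided permutation p = 0.1, adjusted p = 1). The region lies at chr15:82088210-82090249 (mm9), 1.76 kb from the start of the isoform that holds nearly all of its FPKM and over an exon, and its RNA was close between the tables, as given above. Of 126 members, 2 were thus higher in every stress library, both lncRNAs, and none was lower. Without stress 1, stress 2 or control 2, the count of higher members was 5, 6 and 4, where 24.6%, 11.8% and 15.8% of all genes with a peak were higher. Over the 12602 genes with a peak, 7.49% were higher in every stress library and 1.04% were lower. Of the 46 members with a peak the count is below that share, so it is no result about the set.

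Regions found in 1 group only were also rare. No member held a region found in all 3 stress libraries and no control library, where 4.63% of genes with a peak did. Gm16039, now annotated as the coding gene Umad1, held 1 region found in all 3 control libraries and no stress library, at chr6:8342836-8343899 (mm9) in an intron, where 1.24% of genes did. Of 94 regions in members, 48 were found in 1 library only (51.1%, against 56.9% of all 74450 regions), 65 lay in introns, 23 on exons and 6 at start sites.

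**Figure D4:**
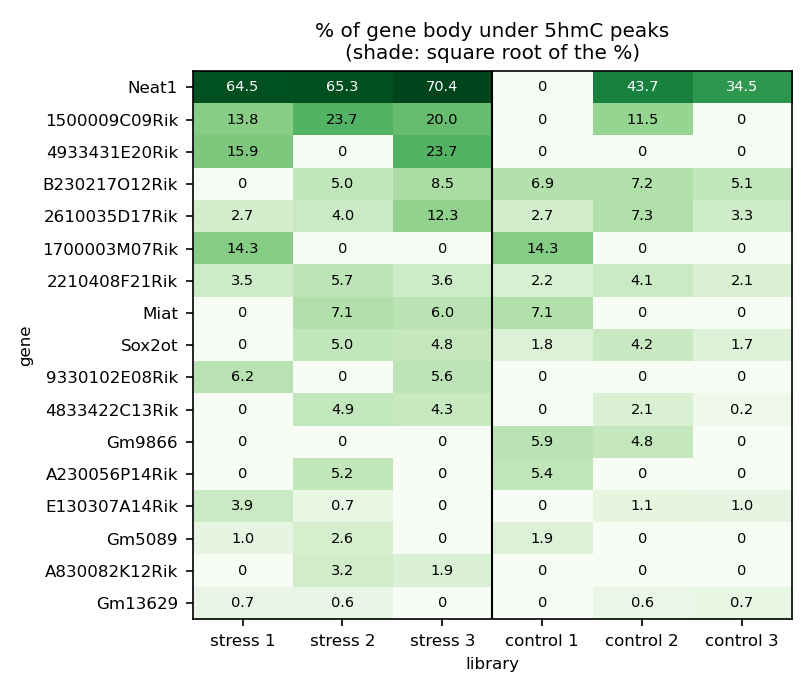
Percentage of the gene body under 5hmC peaks in each of 3 stress and 3 control libraries, for the 17 lncRNAs with a peak in at least 2 libraries, ordered by their mean; the shade follows the square root of the percentage. Neat1 and 1500009C09Rik stand apart at the top, and most other lncRNAs are at 0 in several libraries of both groups.

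In each of the 6 lncRNAs with a body of at least 100 kb, the coverage of the groups overlapped. Their mean was higher in stress, as was that of coding genes of this length (2.11% in stress, 1.59% in control). 2610035D17Rik, the longest lncRNA body at 157.93 kb, was covered to 2.72%, 4.02% and 12.3% in stress libraries and to 2.75%, 7.32% and 3.29% in control libraries. Sox2ot was covered to 0%, 4.99% and 4.75% in stress and 1.82%, 4.17% and 1.71% in control, and its most shared region, 58.7 kb after the start, was found in stress 2 and 3 and all 3 control libraries. 2210408F21Rik was covered to 3.50%, 5.68% and 3.60% in stress and 2.18%, 4.12% and 2.11% in control. The other 3 held less: E130307A14Rik averaged 1.53% in stress and 0.687% in control, Gm13629 averaged 0.431% and 0.427%, and 2900079G21Rik had 1 peak, in control 2. All FPKM of 2900079G21Rik lay in a short isoform at chr9:112136781-112138522 (mm9), and the peak starts beyond it, at base 112140670. Among shorter bodies, B230217O12Rik was covered to 0%, 4.98% and 8.48% in stress and 6.93%, 7.22% and 5.06% in control, and Miat to 0%, 7.11% and 5.95% in stress and 7.10%, 0% and 0% in control.

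Some lncRNAs had peaks in few libraries. Cerox1 (2810468N07Rik), which in mouse cells affects mitochondrial complex I, was covered to 50.4% in stress 3 and 0% in the other 5 libraries. 4933431E20Rik was covered to 15.9% and 23.7% in stress 1 and 3 and to 0% in stress 2 and all 3 control libraries. Of the 34 lncRNAs with a peak, 17 had one in 1 library only.

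Start sites were seldom under a peak. Within 1 kb of the outermost annotated start, 6 of 74 lncRNAs (8.11%) had a peak in at least 1 library, against 14.8% of expressed coding genes. Neat1 had 823, 697 and 967 bp under peaks in that window in stress libraries 1, 2 and 3 and 0, 193 and 0 bp in control libraries 1, 2 and 3. Tug1, whose promoter printed above holds 37 CpGs, had 223, 229 and 0 bp in stress and 303, 45 and 165 bp in control. The Tug1 window is centred on base 3548817 of chr11 (mm9), where an isoform at close to 0 FPKM starts. The isoforms that hold nearly all Tug1 FPKM start at base 3547539, and no library had a peak in the gene body. The Tug1 bases under peaks thus lie more than 1 kb before the start of those isoforms. Which of the Tug1 starts the promoter printed above belongs to was not determined. 4833422C13Rik, with 5 CpGs in its promoter, had 0, 914 and 900 bp in stress and 0, 0 and 1088 bp in control. Malat1 had none in any library. The groups overlapped in Tug1 and 4833422C13Rik and did not overlap in Neat1. The Neat1 bases belong to the region already described for its body, so they are no separate observation. The share of all genes without overlap in this window was not computed.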

How the data were processed

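The authors deposited 1 FPKM table per group for RNA, with the tools TopHat 1.0.12, Cufflinks 2.1.1 and Cuffdiff 2.1.1 named in the submitters' processing notes; how libraries were combined is not stated in the labels. For each 5hmC library the authors deposited 1 peak list with a score per peak, and Bowtie 0.12.9, mm9 and edgeR are named in the same notes. Between 25000000 and 35000000 reads were mapped for each 5hmC library, per the labels, and the depth of each library is unknown. The deposited RNA tables hold no counts; coverage per FPKM was 9.22 in the stress and 8.14 in the control table.

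FPKM of isoforms were summed per gene, and differences are log2 with a pseudocount of 1. Members and lists were chosen with earlier results of these data known. Deposited intervals were not used, since 30 members had an FPKM outside them. Coverage is the percentage of a gene body (mm9, from the tables) under peaks; regions are merged peaks overlapping by at least 1 bp. Genes were tested by exact permutation over 20 splits, with Benjamini-Hochberg adjustment; p-values measure the spread between pools. Libraries were treated as unpaired, since no pairing by replicate number was seen.

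Named genes were the 15 highest levels, the 8 highest and 8 lowest differences, the 8 highest coverages, the 6 longest bodies, members with a region in 1 group only, and fixed names; the text names some of them. Tug1, 4833422C13Rik, the hosts of miR-29 and miR-125b, Snhg4, A230072C01Rik and partner genes were added after their values were seen. Differences among the 74 lncRNAs were ranked within them. Alternatives were another pseudocount, no filter, the most abundant isoform, centring, members without shared exons or bodies, shortened peak lists, bodies extended by 5 kb, length weighting, scaled coverage, a replicate block and leaving out each library. The steps were tested on simulated data. Python 3.11.15 with numpy 2.4.6, pandas 2.3.3, scipy 1.17.1 and matplotlib 3.10.9 was used.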

Additional observations from a re-analysis of the deposited data

How the results depend on the processing

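RNA. The main count was 0 members at least 1.5-fold higher and 1 lower. It became 1 and 4 with a pseudocount of 0.1, 4 and 6 of 1025 genes with no filter on low values, and 1 and 1 with the most abundant isoform. It was 0 and 4 after centring on the all-gene median, 0 and 0 of 83 members without shared exons, and 0 and 0 of the 74 lncRNAs. The shares of all genes past 1.5-fold, 1.08% higher and 0.721% lower, were computed for the main setting only. The counts under the alternatives thus have no background beside them and are not read as a result about the members. The median log2 difference, 0.034, was 0.039 with a pseudocount of 0.1, 0.042 without shared exons and 0.018 over the lncRNAs, and turned to -0.056 after centring and to -0.0012 with no filter. The cause of these shifts was not tested.

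5hmC. Mean coverage in stress over that in control was 2.08, 1.36 relative to expressed coding genes, 1.44 when weighted by length and 3.56 with the higher-scoring 50% of each list; leaving out a library gave 1.67 to 2.83. Members with coverage higher in every stress library numbered 2 (7.49% of all genes with a peak), and 5 with bodies extended by 5 kb (8.35%). Coverage divided by the mean over all genes with a peak gave 1 higher (1500009C09Rik) and 2 lower (B230217O12Rik and Gm16039), against 3.15% and 7.13% of all genes. The numbers lower in every stress library, 0 in the main analysis, were 1 with the same number of peaks (2.11% of all genes) and 1 with the same covered length (3.11%), an alternative chosen after seeing the data like those on the lncRNAs alone. Leaving out a library gave 2 to 6 higher (5 without stress 1, 6 without stress 2, 4 without control 2) and 0 to 2 lower, while 9.03% to 24.6% of all genes were higher and 1.46% to 3.71% lower. Neat1 and 1500009C09Rik were among the higher in each of these except the scaled coverage, where Neat1 was not.

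Replicate numbers as a block gave 4 higher and 1 lower in all 3 pairs, against 13.7% and 2.43% of all genes. Correlations of same-numbered libraries were -0.0050 to 0.016, and those of differently numbered libraries were -0.035 to 0.028. No pairing by number was thus seen, though 3 pairs cannot exclude one.

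The counts of 0 members with a stress-only and 1 with a control-only region became 1 and 0 with the same number of peaks, the higher-scoring 50% or the same covered length. They were 1 and 1 with bodies extended by 5 kb or when a library had to cover at least 50% of the region, and 0 and 0 over the lncRNAs. Leaving out a library gave 0 to 3 and 1 to 3. With a library left out, a region had to be present in, or absent from, fewer libraries. The shares of all genes with a peak that held such regions were 4.63% and 1.24%, and they were computed at the main setting alone. The changed counts therefore lack a background and are not read as a result about the members. The depth of the libraries limits all counts of peaks.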
